A study of Homo sapiens with 6 samples.

Results

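The genes described here are 10 genes of the epithelial-mesenchymal transition (EMT): the transcription factors ZEB1, ZEB2, SNAI1, SNAI2 and TWIST1, the cadherins CDH1, CDH2 and CDH11, the intermediate filament gene VIM and the matrix gene FN1. They were chosen by name, and all 10 were found among the 41471 gene symbols of the knockdown experiment and the 34157 of the Reb experiment. MDA-MB-231, a human cell line from a triple-negative breast cancer (TNBC), was profiled by RNA-seq in 6 libraries. In the knockdown experiment, cells stably carrying a lentiviral scramble-shRNA were compared with cells carrying CDK16-sh1 or CDK16-sh2, which are short hairpin RNAs against CDK16, a cell-cycle related kinase. In the Reb experiment, cells were given the vehicle DMSO, 1 μM Rebastinib (Reb, a kinase inhibitor) or 5 μM Reb for 48 h. Each condition had 1 library, so no value has a replicate check, and the intervals below are 95% Clopper-Pearson intervals that cover counting error only. In bulk RNA, fewer cells that express a gene and less of its RNA per cell cannot be told apart.

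EMT is the change by which an epithelial cell loosens its contacts with its neighbours and gains the shape and motility of a mesenchymal cell. ZEB1, ZEB2, SNAI1 and SNAI2 are zinc-finger repressors, and TWIST1 is a helix-loop-helix factor; the zinc-finger factors bind E-box sequences and repress epithelial genes, of which CDH1 (E-cadherin) is the best known. CDH2 (N-cadherin) and CDH11 (cadherin 11) are cadherins of mesenchymal cells, VIM encodes vimentin, and FN1 encodes fibronectin. MDA-MB-231 is known as a mesenchymal-like line that has lost most of its E-cadherin.

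The E-box bound by ZEB and Snail factors is shown here because ZEB1, a member of that family, was the EMT factor furthest below its control in CDK16-sh1. The motif CAGGTG, or CACCTG on the other strand, was searched in the RefSeq promoter windows of GRCh38.p14, each with 250 bases before and 50 after a transcript start. Windows were present for 5 of the 10 genes: VIM, CDH2, ZEB1, ZEB2 and FN1. It lay in 2 of the 7 ZEB1 windows and in none of the windows of VIM (1), CDH2 (2), ZEB2 (1) and FN1 (1), against 20.6% of all 35116 windows. One ZEB1 window held 3 matches, and 3.49% of all windows held 2 or more. The 4 ZEB1 matches are printed 5′ to 3′ on the plus strand of chromosome 10 within 30 bases each, with the motif in capitals.
ZEB1, 57 bases before the start at 31318417, chr10:31318348-31318377: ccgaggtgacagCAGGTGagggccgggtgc
ZEB1, 242 bases before the start at 31319216, chr10:31318966-31318995: ccccaccaCACCTGaggaaaacttttccct
ZEB1, 85 bases before the start at 31319216, chr10:31319119-31319148: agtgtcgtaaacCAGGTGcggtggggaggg
ZEB1, at base 34 of the transcript that starts at 31319216, chr10:31319236-31319265: tggcggatggcccCAGGTGtaagcgcagaa
A match is a run of letters in a window, and binding was not measured.

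Total counts per library ranged from 25838443 to 50303269, with 7.19% to 16.4% of counts in mitochondrial transcripts, the highest shares being those of CDK16-sh2 (16.2%) and 5 μM Reb (16.4%). CDK16 itself had 3223 counts with scramble-shRNA, 1360 with CDK16-sh1 and 846 with CDK16-sh2, log2 fold changes of -1.52 (-1.61 to -1.43) and -1.82 (-1.93 to -1.71), so the counts followed the labels. Of the line's markers, VIM, CD44, EGFR, CAV1, MSN and AXL were detected in every library, with counts from 607 to 188518, whereas ESR1 and PGR had 0 to 16 counts and KRT5 0 to 23. EPCAM (125 to 408 counts) and KRT14 (26 to 151) were low, and ERBB2, listed as low for this line, had 996 to 3396 counts.

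Levels were compared between the genes as RPKM, the authors' counts divided by exon length and by the library's total. VIM was the highest of the 10 genes in every library, with 649, 833 and 686 RPKM for scramble-shRNA, CDK16-sh1 and CDK16-sh2, and 352, 227 and 177 RPKM for DMSO, 1 μM and 5 μM Reb. With DMSO, VIM was followed by FN1 at 39.1 RPKM, ZEB1 at 24.3, SNAI2 at 19.0, CDH11 at 4.98, ZEB2 at 1.83 and SNAI1 at 1.75. With scramble-shRNA the order was FN1 at 21.5 RPKM, SNAI2 at 16.9, ZEB1 at 9.84, CDH11 at 7.23, ZEB2 at 2.43 and SNAI1 at 0.253. The order thus differed between the control libraries for ZEB1 and SNAI2, and with 1 library a condition no neighbours in it can be set against their spread. CDH2, CDH1 and TWIST1 stood below 0.2 RPKM in all 6 libraries.

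**Figure D1:**
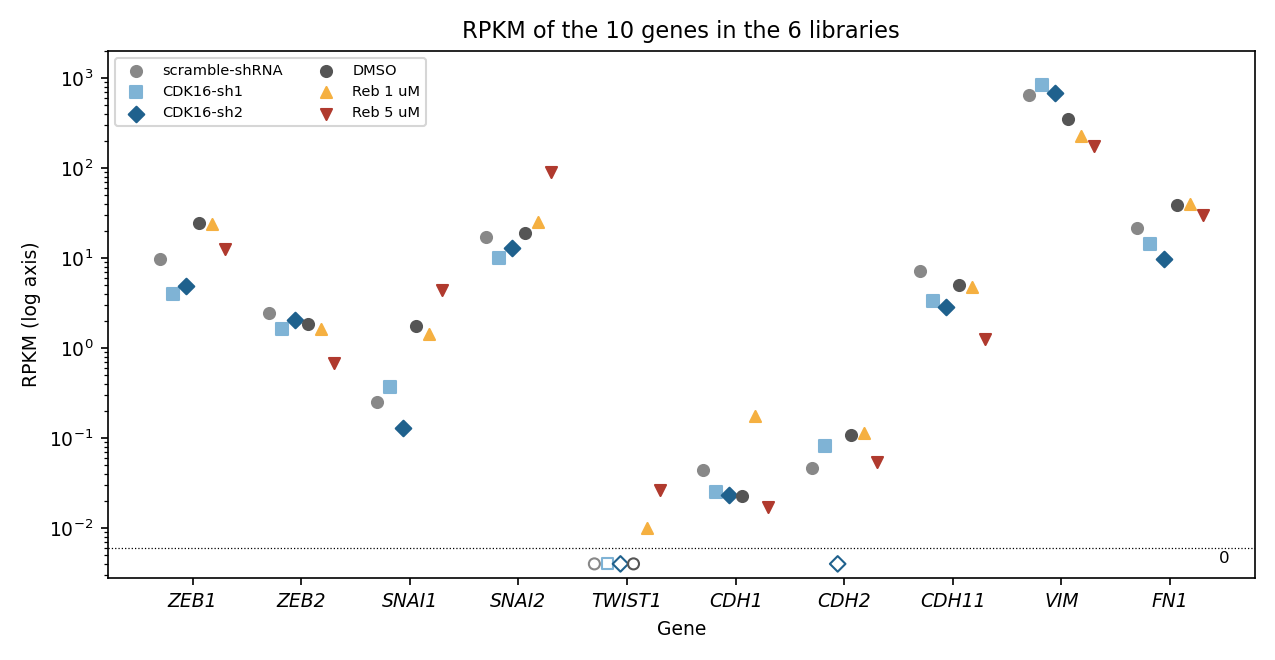
RPKM of the 10 genes (horizontal axis) on a log axis, with 1 symbol per library. Open symbols under the dotted line are libraries with 0 counts. VIM lies between 177 and 833 RPKM, CDH1, CDH2 and TWIST1 lie near or at 0, and SNAI2 at 5 μM Reb (89.7 RPKM) stands above its other 5 values.

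Fold changes were computed from counts scaled by TMM (trimmed mean of M-values) with 2 counts added as a prior. Genes were kept from a mean of 1 CPM upwards, a CPM being a count scaled to the library's total. This left 6 of the 10 genes among 15295 in the knockdown experiment (VIM, CDH11, ZEB1, ZEB2, SNAI2 and FN1) and 7 of the 10 among 15655 in the Reb experiment (the same with SNAI1). CDH1, CDH2 and TWIST1 passed in neither experiment. A change of at least 2-fold, a log2 fold change past 1 in size, is used below as a threshold of size and not as a test.

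The CDK16-KD comparison asked what the cells express when CDK16 is depleted. Of the 6 genes, 2 were at least 2-fold lower in CDK16-sh1 (CDH11 and ZEB1), beside 6.86% of all genes, and 0 were at least 2-fold higher, beside 4.33%. In CDK16-sh2, 1 was at least 2-fold lower (CDH11), beside 7.62% of all genes, and 0 were higher, beside 2.2%. CDH11 alone was past 2-fold lower in both hairpin libraries, as were 1.44% of all genes, and none was past 2-fold higher in both, as were 0.438%. The 6 genes had median log2 fold changes of -0.66 (CDK16-sh1) and -0.50 (CDK16-sh2), beside 0.00 and 0.02 over all genes. The hairpin libraries share the scramble-shRNA control, so a control library that stood low or high would move both values alike.

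CDH11 is a type II classical cadherin, first described in osteoblasts and common in mesenchymal and invasive breast cancer cells. It had 2499 counts with scramble-shRNA, 1429 with CDK16-sh1 and 1042 with CDK16-sh2, both hairpin libraries being below the control although the CDK16-sh1 library was the deepest of the 3. The log2 fold changes were -1.08 (-1.18 to -0.99) and -1.15 (-1.26 to -1.05), or 2.12-fold and 2.22-fold lower. Between the hairpins CDH11 differed by a log2 ratio of -0.07 (-0.19 to 0.04), within counting error.

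ZEB1, a repressor of CDH1 and of epithelial polarity genes, had 2199 counts with scramble-shRNA, 1106 with CDK16-sh1 and 1163 with CDK16-sh2. The log2 fold change of ZEB1 was -1.27 (-1.37 to -1.16) with CDK16-sh1, where 3.53% of all genes lay lower, and -0.81 (-0.92 to -0.71) with CDK16-sh2. The hairpins differed by 0.46 on the log2 scale (0.34 to 0.58), CDK16-sh2 being higher. CDK16 itself was lower in CDK16-sh2, and a relation between these orders was not tested. ZEB2, its paralog, had 1490, 1220 and 1348 counts. On the log2 scale ZEB2 differed from the control by -0.56 (-0.68 to -0.46) with CDK16-sh1 and by -0.04 (-0.15 to 0.07) with CDK16-sh2, where a difference was not detectable at this depth.

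GC content and length moved with these values. With CDK16-sh1, the median log2 fold change ran from -0.43 in the quintile of genes with the lowest GC content to 0.42 in the quintile with the highest, and with CDK16-sh2 from -0.14 to 0.11. ZEB1 (38.5% GC) and ZEB2 (39.1%) are in the lowest quintile and CDH11 (42.9%), SNAI2 (41.4%) and FN1 (42.2%) in the next. The quintile of genes with the longest exon models, which holds ZEB1, ZEB2, CDH11 and FN1, had medians of -0.29 and -0.14. With the trends on GC content and length removed by loess, ZEB1 was at -0.75 and -0.53 and CDH11 at -0.65 and -0.85, so none of the genes was past 2-fold in either hairpin library. ZEB2 was then at 0.01 and 0.37, and FN1 at -0.09 and -0.59. The difference of ZEB1 between the hairpins was then 0.22.

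SNAI2 (Slug), a Snail factor of the mammary basal lineage, had 996 counts with scramble-shRNA, 720 with CDK16-sh1 and 807 with CDK16-sh2. This was a log2 fold change of -0.74 (-0.89 to -0.61) for the first hairpin and -0.20 (-0.33 to -0.06) for the other. FN1 had 9626, 7862 and 4666 counts, and its log2 fold changes were -0.57 (-0.61 to -0.53) and -0.94 (-0.99 to -0.89). FN1 was thus lower in CDK16-sh2 than in CDK16-sh1, by -0.37 (-0.42 to -0.32), the opposite order to ZEB1, ZEB2 and SNAI2. VIM was the 1 gene of the 6 above the control in both hairpin libraries, with 86511, 137281 and 97290 counts and log2 fold changes of 0.39 (0.38 to 0.40) and 0.28 (0.26 to 0.29). Scaling by library totals brought VIM in CDK16-sh2 to 0.08.

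The remaining 4 genes were near the limit of detection in the knockdown experiment. SNAI1 (Snail) had 11, 20 and 6 counts, with log2 ratios to scramble-shRNA of 0.59 (-0.55 to 1.79) and -0.77 (-2.49 to 0.79). CDH1 had 7, 5 and 4 counts, with log2 ratios of -0.76 (-2.76 to 1.11) and -0.70 (-2.92 to 1.28). CDH2 had 6, 13 and 0 counts and TWIST1 had 0 in all 3 libraries, where a count of 0 allows up to 3 counts, or 0.0939 to 0.116 CPM. The log2 ratio of CDH2 was 0.84 (-0.66 to 2.52) for CDK16-sh1, and for CDK16-sh2, at 0 counts, the interval ended at -0.13. Apart from that, these intervals held 0.

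With both hairpins taken as 1 group against scramble-shRNA, so that the difference between the hairpins counts as the spread with 1 residual degree of freedom, edgeR's quasi-likelihood test called 0 of 15295 genes (0%) at an adjusted p of at most 0.05 and at least 2-fold. At an unadjusted p under 0.05 it had 382 genes, and DESeq2 called 0 with 233 under 0.05. In the edgeR fit, CDH11 had a log2 fold change of -1.12 with an unadjusted p of 0.0264 and ZEB1 of -1.02 with one of 0.0441, and with edgeR's adjusted p of 1.00 over all genes neither passed. For VIM, ZEB2, SNAI2 and FN1 the unadjusted edgeR p ran from 0.144 to 0.595.

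The Reb comparison asked what the cells express under the inhibitor at a low and a high dose. At 1 μM, 0 of the 7 genes were at least 2-fold lower, beside 1.92% of all genes, and 0 were at least 2-fold higher, beside 1.28%. At 5 μM, 1 was at least 2-fold lower (CDH11), beside 27.2% of all genes, and 2 were higher (SNAI1 and SNAI2), beside 23.6%. At 5 μM, 1 and 2 of 7 genes are shares near that background, so these counts say nothing particular of the set. None of the 7 was past 2-fold at both doses in 1 direction, as were 1.08% of all genes lower and 0.645% higher. The median log2 fold change of the 7 was -0.10 at 1 μM and -0.26 at 5 μM, beside 0.00 and -0.07 over all genes, and both doses share the DMSO library.

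SNAI2 stood furthest from its control. The DMSO library held 2181 counts, the 1 μM library 2794 and the 5 μM library 7710, the highest count in the shallowest library of the experiment. The log2 fold change was 0.33 (0.25 to 0.42) at 1 μM and 2.93 (2.86 to 3.00) at 5 μM, or 7.61-fold, and 97.3% of all genes lay below it at 5 μM. By RPKM it went from 19.0 with DMSO to 24.8 at 1 μM and 89.7 at 5 μM, where VIM alone of the 10 genes was higher. Over the 7 alternative settings its value at 5 μM stayed between 2.23 and 2.99.

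SNAI1, the founding Snail factor, had 148, 118 and 281 counts for DMSO, 1 μM and 5 μM. Its log2 fold change was -0.34 at 1 μM, with an interval (-0.71 to 0.01) that holds 0, and 2.02 (1.74 to 2.33) at 5 μM, a log2 value between 1.30 and 2.08 over the settings. The Snail factors were thus both past 2-fold higher at 5 μM, and both were higher at 5 μM than at 1 μM, by 2.60 (2.53 to 2.66) for SNAI2 and 2.36 (2.07 to 2.71) for SNAI1. They differ in GC content. SNAI2 (41.4%) is in the quintile next to the lowest, where the median log2 fold change of all genes at 5 μM was 0.22, and SNAI1 (58.2%) is in the highest, where it was -0.59. With GC and length trends removed, SNAI2 at 5 μM was at 2.55.

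The ZEB factors stood on the other side of DMSO from the Snail factors at 5 μM. ZEB1 had 10560, 10081 and 4088 counts, with log2 fold changes of -0.09 (-0.13 to -0.05) and -0.26 (-0.31 to -0.21). ZEB2 had 2187, 1899 and 602 counts, with log2 fold changes of -0.23 (-0.32 to -0.14) and -0.75 (-0.89 to -0.62). By TMM scaling both were below DMSO at both doses and under 2-fold. At 5 μM, ZEB2 was past 2-fold lower under 4 of the 7 alternative settings, from -1.01 with GC and length trends removed to -1.44 by library totals, and ZEB1 was at -0.95 by library totals. TWIST1 had 0, 1 and 2 counts, which is at or under 3 counts in every library, and no fold is given.

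CDH11 counts were 3351 for DMSO, 3173 for 1 μM and 639 for 5 μM. On the log2 scale it differed from DMSO by -0.10 (-0.17 to -0.03) at 1 μM and by -1.28 (-1.41 to -1.16) at 5 μM, or 2.43-fold lower, and 21.2% of all genes lay lower still at 5 μM. CDH2 had 27, 28 and 10 counts, with log2 ratios of 0.03 (-0.79 to 0.85) and -0.33 (-1.54 to 0.77), which leave a difference not detectable at this depth.

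CDH1 counts were 7 for DMSO, 53 for 1 μM and 4 for 5 μM, so that the 1 μM library stood above the other 5 libraries, which held 4 to 7 counts. The log2 ratio to DMSO was 2.90 (1.76 to 4.28) at 1 μM and 0.30 (-1.92 to 2.28) at 5 μM. Even at 1 μM its level was 0.174 RPKM, against 227 RPKM for VIM. The 1 μM library also held more counts than DMSO of 4 of 7 markers of immune and endothelial cells: LYZ with 130 against 8, PTPRC with 35 against 2, VWF with 19 against 4 and CD3E with 8 against 0. Over all 7 markers the summed level was 5.77 CPM with DMSO, 5.45 CPM at 1 μM and 0.478 CPM at 5 μM, and 0.945 to 3.13 CPM in the knockdown libraries. The sum did not move with CDH1, because PECAM1 (154, 53 and 4 counts) and CDH5 (122, 24 and 11 counts) were highest with DMSO. Their part in the CDH1 value was not tested.

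VIM had 91270, 57773 and 34429 counts, with log2 fold changes of -0.68 (-0.70 to -0.67) at 1 μM, where 5.21% of all genes lay lower, and -0.30 (-0.32 to -0.28) at 5 μM. It was thus nearer to DMSO at the higher dose by TMM scaling, with a log2 ratio of 5 μM to 1 μM of 0.39 (0.37 to 0.40), but by library totals that ratio was -0.36. FN1 had 34026, 33609 and 19694 counts, with log2 fold changes of -0.04 (-0.06 to -0.02) and 0.32 (0.29 to 0.35), and its sign turned at both doses by library totals. Scaling by library totals moved the median of all genes at 5 μM by -0.68 on the log2 scale, and the deposited RPKM carry the same scaling. SNAI2 and SNAI1 stayed past 2-fold higher and CDH11 past 2-fold lower under all 7 settings.

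**Figure D2:**
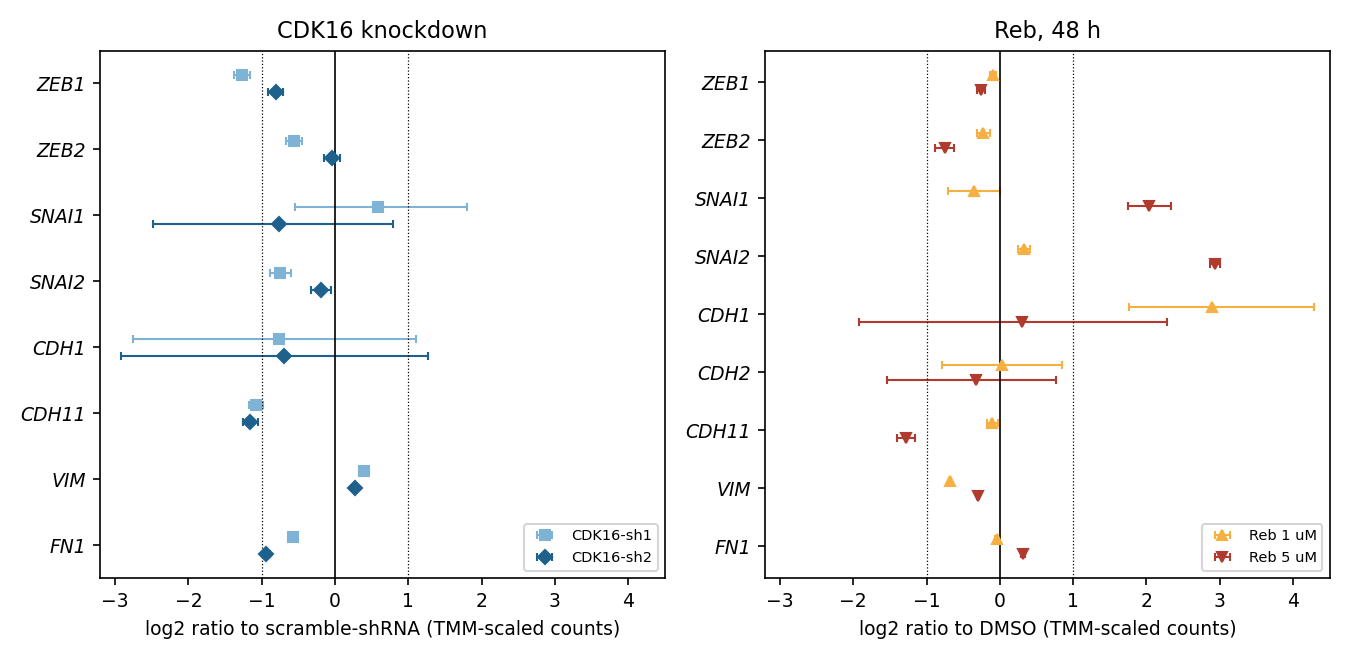
Log2 ratios of TMM-scaled counts of each gene to its own control (horizontal axis), without a prior count, with 95% Clopper-Pearson intervals that cover counting error, and 1 library per point. Dotted lines mark 2-fold, and TWIST1 and, in the knockdown experiment, CDH2 are left out because a library was at 0. CDH11 lies near -1.1 in both hairpin libraries (-1.08 and -1.15), and SNAI1 (2.03) and SNAI2 (2.93) lie to the right at 5 μM Reb.

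When the 1 μM and 5 μM libraries were pooled against DMSO, the same edgeR test called 12 of 15655 genes (0.0767%), 1 lower and 11 higher, and no member of the set was among them. None of the 7 had an unadjusted p under 0.05 by edgeR or by DESeq2, the smallest edgeR p being 0.114 for SNAI2 with an adjusted p of 1. With dose entered linearly, as log2(dose + 1), the edgeR fit gave log2 slopes per unit of 1.17 for SNAI2, 0.84 for SNAI1 and -0.52 for CDH11. That fit takes the 3 libraries as points on 1 line, and its spread is their distance from it, not a spread between replicates.

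The treated effects can be set beside the difference between the control libraries, scramble-shRNA against DMSO, a comparison added after the data were seen. These libraries come from separate experiments with separate count tables. The difference thus holds the vector, the vehicle and anything else that differed between the experiments, which cannot be told apart. Whether culture or sequencing run differed is not given by the labels. Of 15782 genes, 13.1% were at least 2-fold lower and 12.3% at least 2-fold higher with scramble-shRNA. ZEB1 was at -1.41 (-1.48 to -1.34) with scramble-shRNA, and SNAI1, with 11 against 148 counts, was at -2.75 (log2 ratio without the prior count -2.90, -3.93 to -2.02). FN1 was at -0.97 and VIM at 0.78 (0.76 to 0.79). CDH11 at 0.43 (0.36 to 0.51), ZEB2 at 0.30 (0.20 to 0.40) and SNAI2 at -0.28 (-0.39 to -0.17) differed less between the controls. With GC and length trends removed, CDH11 was at 0.71 between the controls, against -0.65 with CDK16-sh1.

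**Figure D3:**
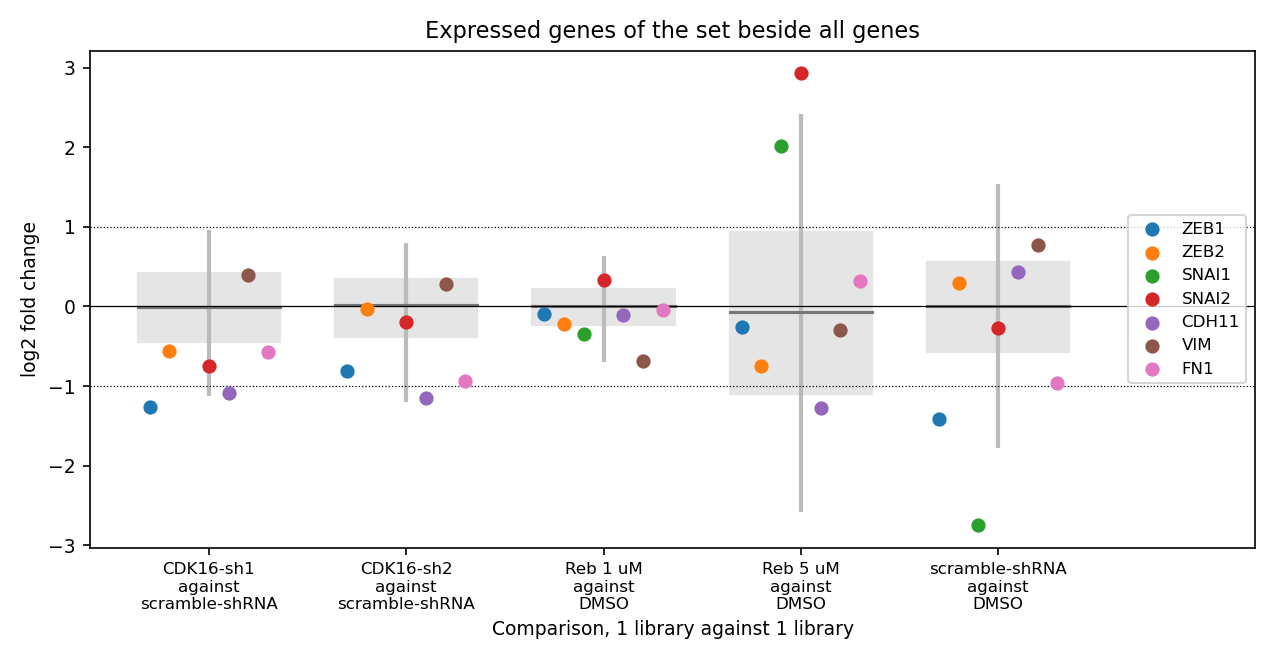
Log2 fold changes (vertical axis) of the expressed genes of the set in the 4 treated comparisons and between the control libraries. Grey boxes span the middle 50% of all genes tested, grey lines the range from percentile 5 to percentile 95, and dotted lines mark 2-fold. ZEB1 is lower in CDK16-sh1 than percentile 5, SNAI2 at 5 μM is above percentile 95, and SNAI1 and ZEB1 are past 2-fold lower between the controls.

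Antisense and overlapping genes bear on what the VIM value counts. The library kit was stranded, but the strand setting of the counting is not given in the sources used here, so reads of a gene and of a partner on the other strand cannot be told apart with certainty. VIM (GRCh38, chr10:17228259-17237593, plus strand) shares 641 exon bases with VIM-AS1 and 619 with RP11-124N14.3, both on the opposite strand. VIM-AS1 had 30580, 47997 and 27105 counts in the scramble-shRNA, CDK16-sh1 and CDK16-sh2 libraries, and 35926, 20483 and 11223 counts with DMSO, 1 μM and 5 μM Reb. Its log2 fold changes of 0.37, -0.07, -0.83 and -0.57 had the sign of VIM in all but CDK16-sh2, and RP11-124N14.3, at 0.26, 0.46, -0.63 and -0.22, had it in all 4. With scramble-shRNA, RP11-124N14.3 had 34745 counts and 1905 RPKM, against 649 RPKM for VIM. Reads shared with VIM would give it the sign of VIM, so this sign is not a separate observation. Such sharing was not tested. The other overlapping genes were far lower. ZEB1-AS1 had 45 to 95 counts, ZEB2-AS1 had 2 to 38, and RP11-229O3.1, which lies on the same strand within CDH11 (chr16:64943753-65126112) and shares 254 exon bases with it, had 180, 120 and 64 counts in the knockdown experiment and 251, 279 and 15 in the Reb experiment.

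Lists of related genes were read by their counts and medians. Their counts stand beside 6.86% of all genes lower and 4.33% higher for CDK16-sh1, 7.62% and 2.2% for CDK16-sh2, 1.92% and 1.28% at 1 μM and 27.2% and 23.6% at 5 μM. Among 16 other EMT transcription factors, 10 were tested in each experiment. Of these, 1 was past 2-fold lower in CDK16-sh1 (TCF4, an E protein, at -1.53) and 1 in CDK16-sh2 (ZNF703, at -1.72), and 0 were higher in either. At 5 μM Reb 2 were lower, among them TCF4 at -2.13, and 3 higher (BACH1 at 2.11, FOXC1 at 1.79 and SOX4 at 1.02), and the median was -0.59. These examples and those below, other than DSG2, were named after their values were seen.

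Epithelial genes lay on both sides of the control in every treated library. Those past 2-fold were all lower in the hairpin libraries and went both ways at 5 μM Reb. Of 24 epithelial junction and surface genes tested in the knockdown experiment, 3 were past 2-fold lower in CDK16-sh1, 2 in CDK16-sh2 and 0 higher in either, with medians of -0.24 and -0.15. DSG2, a desmosomal cadherin, was the 1 gene of all the lists outside the set that was at least 2-fold lower in both hairpin libraries at 5 CPM or more, with 1871 counts in scramble-shRNA, 1023 for the first hairpin and 780 for the other, and log2 fold changes of -1.15 in each. At 5 μM Reb, 6 of 26 were lower, among them CGN (cingulin of the tight junction) at -2.42 and JUP (plakoglobin) at -1.77, and 7 were higher, among them EPCAM at 1.86 and TJP1 (ZO-1) at 1.13, with a median of -0.15. Both shares were near those of all genes (27.2% lower and 23.6% higher). At 1 μM none of the 26 was past 2-fold and the median was 0.24. Of 7 tested regulators of epithelial transcription and splicing, 1 was past 2-fold lower in CDK16-sh2 (EHF at -1.19) and 0 in CDK16-sh1. Their median was -0.32 in CDK16-sh1, with 4 below the control and 3 above. In CDK16-sh2 it was -0.51, with 6 below and 1 above. At 5 μM 2 were higher (GRHL1 at 2.79 and KLF5 at 1.57) and 1 lower (SPDEF at -2.77). GRHL1 had 36, 20 and 122 counts for DMSO, 1 μM and 5 μM, and passed the filter only through the 5 μM library. SPDEF had 367, 454 and 24 counts.

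Most of the other cadherins were not expressed. Of 20 listed, 2 were tested in the knockdown experiment (CDH4 and CDH24, none past 2-fold) and 4 in the Reb experiment. Of these, CDH5, the endothelial cadherin described above, was lower at both doses by -2.26 and -2.25. At a mean of 1.01 CPM, CDH5 passed the filter only through the DMSO library, where it was highest, so its fall is tied to that selection. Among catenins and cadherin partners, VCL (vinculin) was at -0.82 with CDK16-sh1, -1.73 with CDK16-sh2, -0.02 at 1 μM and -2.27 at 5 μM. CTNNB1 (β-catenin), the partner that links cadherins to α-catenin, was at -0.61 with CDK16-sh1, 0.10 with CDK16-sh2, -0.13 at 1 μM and 2.12 at 5 μM. Of 13 such genes tested in the Reb experiment, 6 were lower and 2 higher at 5 μM, beside 27.2% and 23.6% of all genes.

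Mesenchymal cytoskeleton and surface genes gave different counts in the hairpin libraries, a difference that was not tested. Of 33 tested, 4 were past 2-fold lower and 5 higher in CDK16-sh1, but 6 lower and 0 higher in CDK16-sh2, with medians of -0.17 and -0.21. THBS1 (thrombospondin 1) was at -0.64 and -2.44. COL5A2, a fibrillar collagen, was past 2-fold lower in both, at -2.120 and -1.003, with 71 counts for scramble-shRNA and 18 and 32 for the hairpins. Its mean was 1.55 CPM, near the filter, and was raised by the scramble-shRNA library, where it was highest. The fall of COL5A2 is thus tied to that selection. At 5 μM Reb, 10 of 34 were lower and 3 higher, beside 27.2% and 23.6% of all genes, with CAV1 at -2.07, TAGLN at 2.64 and CD44 at 1.06.

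Genes that act with or on the EMT factors were read in the same way. Of 17 genes of the complexes that repress CDH1, 1 was past 2-fold lower in CDK16-sh1 (SUZ12 at -1.83), 2 in CDK16-sh2 (RCOR1 at -1.83 and AJUBA at -1.11) and none higher in either. At 5 μM, 4 were lower, SUZ12 among them at -1.75, and 3 higher: the deacetylase HDAC2 at 2.11, the demethylase KDM1A at 2.08 and the methyltransferase EZH2 at 1.37. Of 14 genes that control the stability of Snail and ZEB proteins, 5 were past 2-fold higher at 5 μM, beside 23.6% of all genes, among them the ubiquitin ligase SIAH1 at 3.39 and the deubiquitinase USP7 at 2.27, and 1 was lower (the ubiquitin ligase FBXL14 at -2.07), with a median of 0.79 beside -0.07 over all genes. In each hairpin library 1 of the 14 was lower and 0 higher. Protein levels were not measured in these libraries.

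**Figure D4:**
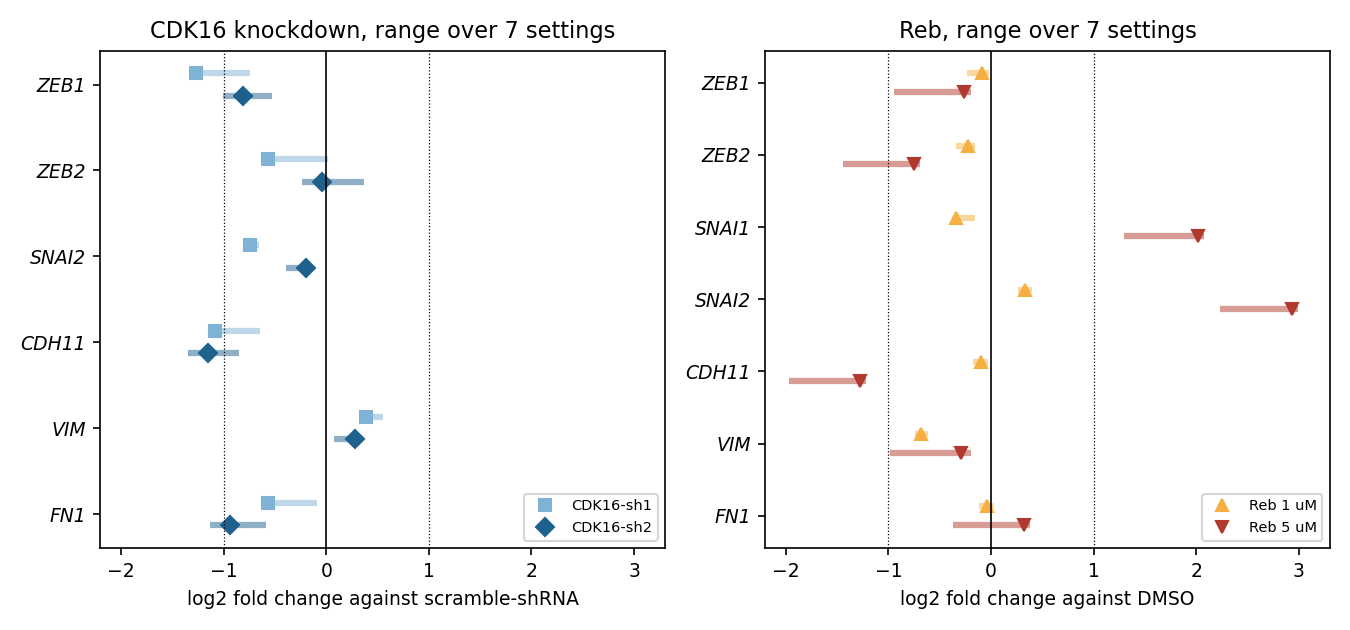
Log2 fold changes of the expressed genes of the set against their own control (horizontal axis), with the value by TMM scaling as the symbol and the range over the 7 alternative settings as the bar. Dotted lines mark 2-fold. SNAI1 and SNAI2 at 5 μM Reb stay right of 1 (lowest values 1.30 and 2.23), CDH11 at 5 μM stays left of -1, and the bars of CDH11 and ZEB1 in CDK16-sh1 cross -1.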

How the data were processed

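RNA-seq was done on MDA-MB-231 cells in 6 libraries of 6 conditions, grouped by their treatment labels. The authors deposited whole-number counts per gene symbol, not normalized, and RPKM tables of the same genes. The submitters' processing notes name Trimmomatic, featureCounts, Subread 1.5.1 and GRCh38, while the strand setting is not given in the sources used here. Exon coordinates come from the deposited tables.

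Counts were scaled by TMM in edgeR 4.0.16 (R 4.3.3). Log2 fold changes against the own control used a prior count of 2, and genes below a mean of 1 CPM were left out. Intervals were Clopper-Pearson at 95% on pairs of counts (scipy 1.17.1). Intervals treat each read as an independent count and cover counting error only. The deposited counts do not show whether molecular identifiers were used. The pooled test was the quasi-likelihood test of edgeR (p adjusted by Benjamini-Hochberg, at most 0.05, and 2-fold), fitted over all genes.

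Alternatives were DESeq2 1.42.0 size factors, library totals with and without mitochondrial transcripts, a prior count of 0.5, no filter, log2(RPKM + 0.1), and loess removal of GC and length trends (span 0.3, GC known for 84.6% and 84.3% of genes).

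The genes of the set, the lists and the rules were chosen with earlier results of these data known. All members are named. From each list up to 3 genes lower and 3 higher were to be named if past 2-fold in 1 direction in each treated library, with a mean of at least 5 CPM, and genes overlapping a member and CDK16 were named too. Genes named outside this rule are said to be so. Values of some listed genes are not reported here.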

Additional observations from a re-analysis of the deposited data

Results flagged for a closer look

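VIM lay above its control in both hairpin libraries, with a log2 fold change of 0.390 for CDK16-sh1 and 0.276 for CDK16-sh2, and below it at both Reb doses, with -0.683 at 1 μM and -0.298 at 5 μM. SNAI2 lay the opposite way, at -0.743 and -0.196 with CDK16-sh1 and CDK16-sh2 and at 0.334 and 2.929 with 1 μM and 5 μM Reb. What drew attention is that every library of one experiment was on one side of its control and every library of the other experiment on the other. The difference between the experiments was not tested, since each arm has 1 library a condition and its own single control.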

How the results depend on the processing

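Among the counts of genes past 2-fold, those lower in CDK16-sh1 went from 2 to 0 with GC and length trends removed. Those lower in CDK16-sh2 went from 1 to 3 by library totals (adding ZEB1 and FN1), to 2 without mitochondrial transcripts, to 2 with no filter (adding CDH2 at 0 counts), to 2 by deposited RPKM and to 0 with GC and length trends removed. Those lower at 5 μM went from 1 to 2 by library totals, by totals without mitochondrial transcripts, by RPKM and with the trends removed, ZEB2 being added each time. Library totals also moved the median log2 fold change of all genes, by -0.195 in CDK16-sh2 and -0.683 at 5 μM. Deposited RPKM moved it by -0.187 and -0.637. The share of all genes past 2-fold was taken under TMM scaling only, so these counts have no matching background. With no filter, 1 gene (CDH1) was past 2-fold higher at 1 μM, and those higher at 5 μM went from 2 to 3, adding TWIST1 at 2 counts against 0. In the pooled knockdown fit by edgeR, CDH11 had a log2 fold change of -1.12 and ZEB1 of -1.02. With dose entered linearly, SNAI2 had a log2 slope of 1.17 per unit. Of 26 member values, 26 kept their sign and side of 2-fold under DESeq2 size factors, a prior count of 0.5 and no filter, and 24 kept their sign under each of the other 4 settings. The cause of these shifts was not tested. No paired analysis was possible because each condition has 1 library, and for the same reason none could be left out. SNAI1, CDH1, CDH2 and TWIST1 are limited by depth in the knockdown experiment.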
